A study of Mus musculus with 15 samples.

Results

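Mouse NIH 3T3 fibroblasts that expressed human C/EBPδ were set against the same line expressing human C/EBPβ, and the genes that separated the 2 factors were read from their arrays. The comparison holds 6 of the 15 arrays of the series: 3 from cells with the C/EBPδ plasmid (CEBPD) and 3 from cells with the C/EBPβ plasmid (CEBPB), chosen by sample title. The rule that picks the arrays uses titles and no measured value, although the comparison itself was proposed with earlier results of these data known. The vector group, 3 arrays of cells with the empty plasmid, was used where each factor is placed against a common baseline; 3 C/EBPα arrays and 3 C/EBPε arrays entered the shared estimate of the spread.

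Each human cDNA stood behind the zinc-responsive metallothionein promoter of the plasmid pMTCB6+. All groups, vector included, were NIH 3T3 cells transfected with a plasmid, selected with G418 and given zinc sulphate for 16 h, so every array shares the zinc and the drug selection. The labels describe polyclonal selected cells, screened for C/EBP protein by Western blot and used in triplicate. The sources used here do not say if replicate arrays stem from independent transfections. Each p-value below therefore covers only array-to-array spread, which may be technical, and the factor cannot be told apart from other differences between the selected cell populations. The amount of each C/EBP protein is not among the values used here, so no difference is per unit of factor.

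C/EBPβ and C/EBPδ are leucine-zipper transcription factors that bind the same DNA motif as homodimers or as heterodimers with other family members. In fibroblasts that become fat cells both are induced early, ahead of C/EBPα and PPARγ. Both are also induced in acute inflammation, where they activate genes of acute-phase proteins and cytokines. C/EBPβ is made in longer activating and shorter inhibitory forms from 1 mRNA, whereas C/EBPδ is made mainly as 1 form.

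RNA was measured on Affymetrix MG_74Av2 arrays, which read each transcript with a set of short probes (a probe set). Values are array signals in arbitrary units, scaled so that all arrays have the same median. Of 12422 probe sets that are not controls, 6963 were bright enough on at least 3 arrays to be tested, and these stood for 5338 genes. Array-to-array correlations of log2 signal were 0.942 to 0.965 within CEBPD, 0.943 to 0.965 within CEBPB and 0.903 to 0.952 between them. The 3′ to 5′ signal ratio of the Gapdh control probe sets, a measure of RNA integrity, was 0.903 to 0.931 in CEBPD and 0.891 to 0.945 in CEBPB. The same ratio for the actin control was 1.16 to 1.27 in CEBPD and 1.05 to 1.15 in CEBPB, without overlap, and its part in the results was not tested. With 3 arrays a group, the number of arrays limits the precision, and no array carries a detection call.

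Of 9 fibroblast marker genes tested, 4 were lower in CEBPD than in CEBPB and 0 were higher. The summed signal of the 11 markers on the array was 108064 to 113636 in CEBPD, 136626 to 194714 in CEBPB and 108008 to 143430 in vector. Of these 11 markers 7 lay above the pooled median signal on average in CEBPD and 9 in CEBPB. The 4 lower ones were the matrix genes Col3a1, Col1a1, Col1a2 and Dcn described with the matrix. Epithelial, skeletal muscle and fat cell markers gave 0 calls among 1, 4 and 1 tested. Of the macrophage and lymphoid markers Cd68 was higher in CEBPD and of the endothelial markers Vwf was, each with its list's other tested members uncalled. The 8 macrophage and lymphoid markers on the array summed to 9429 to 11194 units in CEBPD, 8810 to 11042 units in CEBPB and 11136 to 12839 units in vector, and their part in the results was not tested.

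The endogenous C/EBP genes were compared first. The probe sets are of the mouse genes while the plasmids carried human sequence, and it was not tested if these probes also detect the human RNA. Cebpd had 4454, 6469 and 5440 units on the CEBPD arrays, against 5664, 7816 and 7524 units on the CEBPB arrays. Cebpb had 7955, 10633 and 12684 units on the CEBPD arrays and 7578, 14677 and 14079 units on the CEBPB arrays. The groups overlapped for both genes, with log2 differences of −0.36 ± 0.19 (SE of the limma fit; adjusted p = 0.329) for Cebpd and −0.18 ± 0.33 (adjusted p = 0.847) for Cebpb. Cebpd was lower in CEBPD in each of the 3 same-numbered pairs, with an adjusted p of 0.0924 with the array number as a block and 0.0259 with array weights. The labels name the introduced human factors, and these mouse probe sets gave no check of them.

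Cebpg and Ddit3 encode family members that act mainly as dimer partners. Cebpg, which forms heterodimers with other C/EBP and ATF proteins, averaged 3942 ± 755 units in CEBPD and 2737 ± 140 units in CEBPB (SD, n = 3 each). Its log2 difference of 0.51 had an adjusted p of 0.0883 in the limma fit, and 0.0336 with the array number as a block. Ddit3 (CHOP, an inhibitory partner induced by stress) had 10488, 8873 and 10865 units in CEBPD and 4162, 4982 and 4474 units in CEBPB. It was 2.22-fold higher in CEBPD without overlap, and is described with the stress genes. Cebpa lay below the filter on low signal, at 459 to 1014 units in CEBPD and 466 to 951 units in CEBPB.

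The 2 factors separated 332 probe sets at a Benjamini-Hochberg adjusted p under 0.05 in limma, which is 4.77% of those tested. CEBPD was higher in 185 of them (2.66%) and lower in 147 (2.11%). Read by gene, 262 were called (4.91% of 5338), of which 151 were higher in CEBPD (2.83% of genes tested) and 111 lower (2.08%). Of all 5338 differences, 2463 were above 0 and 2875 below. Every count of called list members in this report is to be read against these shares. More than 2-fold higher in CEBPD were 59 of the called probe sets, and 30 were more than 2-fold lower. A probe set could pass the signal filter on the 3 arrays of 1 group alone. Of the called probe sets, 22 were above the pooled median on all 3 arrays of 1 factor and on 0 of the other. All 332 called probe sets had CEBPD arrays on 1 side of all CEBPB arrays, against 25.1% of the probe sets tested. The call and the lack of overlap are read from the same values. Lack of overlap, here and for single called genes below, is therefore a description and no separate support. Arrays with the same number deviated together, and a fit with that number as a block called 684, of which 343 were higher and 341 lower in CEBPD, including all 332. Leaving out 1 array gave 189 to 381 calls, the lowest without the CEBPD array numbered 3. The count was 199 without CEBPB array 2, 200 without CEBPB array 3, 213 without CEBPD array 1 and 203 without CEBPD array 2.

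**Figure D1:**
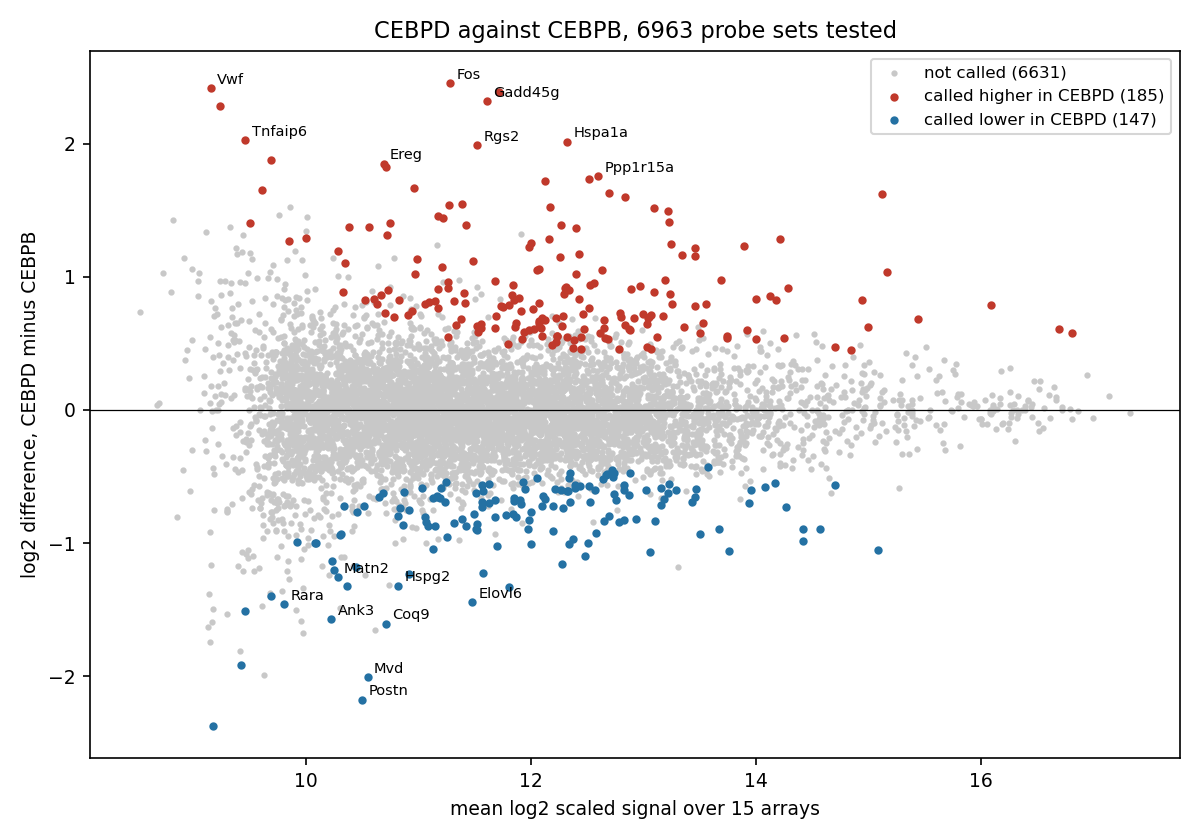
Log2 difference CEBPD minus CEBPB (vertical axis) against the mean log2 scaled signal over 15 arrays (horizontal axis), 1 point per probe set tested, with the 8 largest rises and the 8 largest falls among genes named. The 185 probe sets called higher in CEBPD and the 147 called lower spread over the whole range of signal, and Fos, Vwf and Gadd45g lie highest among the genes named.

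The same 2 groups stood at different distances from vector. CEBPD was higher than vector in 25 probe sets (0.359%) and lower in 0. In limma CEBPB was higher than vector in 357 (5.13%) and lower in 291 (4.18%). Both contrasts share the vector arrays, and each shares arrays with the direct comparison, so they are given side by side for single genes and no overlap is read from them. Rises and falls below are of CEBPD relative to CEBPB and do not say which group differs from vector.

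The largest rise belonged to Fos, the AP-1 subunit encoded by a classic immediate early gene. It had 9734, 12074 and 10211 units on the CEBPD arrays, against 1706, 1838 and 2308 units on the CEBPB arrays. The groups did not overlap, and Fos was 5.49-fold higher in CEBPD (log2 difference 2.46 ± 0.21, adjusted p = 4.62e-06). Its vector mean was 9784 ± 3065 units, close to that of CEBPD. CEBPD minus vector was 0.16 and CEBPB minus vector −2.30 on the log2 scale.

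AP-1 subunits as a list had 3 of 12 tested members higher in CEBPD and 0 lower, with a median log2 difference of 0.33, against −0.03 over all genes tested. Junb had 9655, 12847 and 12595 units in CEBPD and 4535, 5992 and 6444 units in CEBPB. Fosl1 had 12038, 11327 and 11496 units in CEBPD, against 6000, 6647 and 6385 units in CEBPB. Neither gene's groups overlapped, and their log2 differences were 1.05 and 0.87. A second, dimmer Junb probe set went the same way at 0.87 with an adjusted p of 0.0751. Mafk, a small Maf partner, had a log2 difference of 0.96 with an adjusted p of 0.0795, and 0.00157 with the array number as a block. Jun itself, picked after its value was seen, differed by 0.35 and was not called.

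Other immediate early genes, the transcription factors and feedback phosphatases that respond within minutes to growth factors, gave 7 of 23 higher and 0 lower (median log2 0.37). Dusp1, a phosphatase that switches off MAP kinases, had 18289, 22599 and 20178 units in CEBPD and 8835, 9050 and 9208 units in CEBPB. Nr4a2, an orphan nuclear receptor, averaged 1965 ± 290 units in CEBPD and 867 ± 178 units in CEBPB (SD, n = 3 each). Both were without overlap between the groups, at log2 differences of 1.17 and 1.19. For Dusp1 and Nr4a2, CEBPD minus vector was −0.02 and 0.06, and CEBPB minus vector −1.19 and −1.13. Ier3 and Ier2 each differed by 0.91. The remaining called members, Btg2, Klf4 and Errfi1, named after their values were seen, lay between 0.53 and 0.90. Egr1 (0.36) and Myc (−0.06), also picked afterwards, were not called. The 7 calls became 4 without CEBPB array 3 or without any 1 of the 3 CEBPD arrays, and 12 with the array number as a block. Ier2 reached an adjusted p of 0.137 with 1 array left out.

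Genes of growth arrest and p53 targets had 5 of 14 tested members higher and 2 lower in CEBPD (median log2 0.30). The 3 Gadd45 genes, which bind PCNA and stress kinases, were all higher. Gadd45g had 15157, 16950 and 12870 units in CEBPD, against 2433, 4189 and 2610 units in CEBPB. That is 4.99-fold (log2 2.32 ± 0.27, adjusted p = 7.4e-05), with every CEBPD array far above the highest CEBPB array. Gadd45a had 14828, 18988 and 17247 units in CEBPD and 6482, 8138 and 7295 units in CEBPB. Gadd45b differed by 1.17 on its brighter probe set and by 2.39 on the other, both called and without overlap. CEBPD minus vector was −0.08 for Gadd45g, −0.04 for Gadd45a and 0.04 for the brighter Gadd45b probe set. CEBPB minus vector was −2.40, −1.26 and −1.13. Ccng2, a cyclin linked to arrest, was higher in CEBPD than in CEBPB by 0.87. Mdm2, which targets p53 for degradation, was higher by 0.70, while Gas1 and Ccng1 were lower by 0.83 and 0.57. Without the filter on low signal the list had 5 higher and 0 lower. Mdm2, Gas1 and Ccng1 were named after their values were seen.

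Heat shock chaperones and co-chaperones formed the list with most calls in 1 direction: 11 of 20 tested members were higher in CEBPD and 0 lower, with all 20 differences above 0 and a median log2 of 0.65. Over all genes tested, 2.83% were called higher, and 2463 of 5338 differences were above 0. Hspa1a, an inducible Hsp70, had 20362, 23488 and 22924 units in CEBPD, against 5056, 5835 and 5608 units in CEBPB. It was 4.05-fold higher in CEBPD (log2 2.02 ± 0.32, adjusted p = 0.00115). Hspa1b had 60223, 72441 and 71305 units in CEBPD and 27271, 27457 and 28930 units in CEBPB, for a log2 difference of 1.28. Hspa1b was named after its value was seen. Hspa1a and Hspa1b are near-identical copies whose probe sets may read each other's RNA, so the split between them is uncertain. Dnajb1, the Hsp40 partner that hands clients to Hsp70, had 18258, 20605 and 19590 units in CEBPD and 5968, 7379 and 5999 units in CEBPB (log2 1.60). Zfand2a, an arsenite-inducible proteasome-associated protein, had 11048, 12978 and 10349 units in CEBPD and 3518, 3153 and 3749 units in CEBPB (log2 1.72). None of the 4 had overlapping groups. A dimmer Zfand2a probe set differed by 0.97 with an adjusted p of 0.283.

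Of the other called heat shock members, Dnajb9, an endoplasmic reticulum co-chaperone, was named by its rank in the list and differed by 1.46; a second probe set of it differed by 0.31 and was not called. The rest were named after their values were seen. Chordc1, an Hsp90 co-chaperone, differed by 1.15 and by 1.41 on its 2 probe sets. Cryab, a small heat shock protein, differed by 1.05 and Hsph1, a nucleotide exchange factor of Hsp70, by 1.03. Stip1 (0.80) and Hsp90aa1 (0.69) bridge or form the Hsp90 machine, and Hspe1 (0.62) is the mitochondrial co-chaperonin. In vector the means were 27476 ± 2069 units for Hspa1a and 25800 ± 2805 units for Dnajb1 (SD, n = 3), both above the CEBPD means. CEBPD minus vector had a list median of −0.23 with 0 of 20 called in limma, and CEBPB minus vector −0.85 with 15 of 20 called lower. The list's count was 9 to 15 over all alternatives, leaving out single arrays included.

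The heat shock element, the site read by heat shock factors, was looked for in promoters of the called genes because these genes moved together. The search ran over 250 bases before and 50 after each start in RefSeq's GRCm38.p6, with the letters TTCNNGAANNTTC on both strands. It was found in 3 of the 9 called heat shock genes that had a promoter in the table, in 18 of 4343 genes tested that had one (0.414%), and in 0.529% of all 27025 promoters. Among the list's tested members with a promoter, called or not, it was in 3 of 16. Of all genes called higher in CEBPD that had one, 3 of 125 (2.4%) held it. In Hsph1 the match lay after the start. In Chordc1, on chr9:18292017-18292291 (plus strand), 3 overlapping matches span the start. In Hspe1, on chr1:55087898-55088147 (plus strand), 2 overlapping matches begin 89 and 84 bases before the start. Both sequences are shown for these clusters, with the matched bases in capitals.
Chordc1: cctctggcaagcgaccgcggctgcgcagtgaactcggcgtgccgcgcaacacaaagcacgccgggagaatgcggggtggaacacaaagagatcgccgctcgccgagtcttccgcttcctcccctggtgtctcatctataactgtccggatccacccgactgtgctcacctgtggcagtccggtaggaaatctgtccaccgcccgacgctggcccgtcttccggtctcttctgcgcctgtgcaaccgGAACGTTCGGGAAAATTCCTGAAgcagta
Hspe1: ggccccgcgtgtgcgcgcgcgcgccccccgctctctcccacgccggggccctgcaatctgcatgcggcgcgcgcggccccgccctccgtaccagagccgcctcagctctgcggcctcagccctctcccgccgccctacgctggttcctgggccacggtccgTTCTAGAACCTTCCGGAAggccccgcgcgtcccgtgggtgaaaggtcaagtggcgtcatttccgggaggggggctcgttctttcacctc
A match is a description of letters, and whether heat shock factors were bound there was not measured.

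Genes of the integrated stress and unfolded protein responses went both ways, with 4 of 27 higher and 2 lower (median log2 0.05). Ppp1r15a (GADD34), which directs a phosphatase to eIF2α and so restarts translation, had 13107, 15654 and 13841 units in CEBPD, against 3622, 4923 and 4136 units in CEBPB. The groups did not overlap, and the gene was 3.38-fold higher in CEBPD (log2 1.76 ± 0.15, adjusted p = 5.32e-06). Trib3, a pseudokinase induced by ATF4 and CHOP, averaged 4077 ± 800 units in CEBPD and 1590 ± 427 units in CEBPB (log2 1.37). Its adjusted p rose to 0.141 with 1 array left out. Ddit3 (1.15) and Slc3a2 (0.83), a subunit of amino acid transporters, were the others called higher. The 2 called lower, Pdia6 (−0.80) and Manf (−0.50), encode proteins of the endoplasmic reticulum. Both were named after their values were seen. The chaperone Hspa5, also picked afterwards, differed by 0.13 and was not called. The 4 higher calls became 2 without CEBPD array 2.

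A full cyclic AMP response element (TGACGTCA, the same on both strands) was present in the promoters of Ppp1r15a and Zfand2a, and in 1.88% of all promoters. It begins 12 bases before the start in Ppp1r15a, on chr7:45526269-45526518 (minus strand), and 125 bases before it in Zfand2a, on chr5:139484492-139484741 (minus strand). They are shown because both genes are among the 15 largest rises.
Ppp1r15a: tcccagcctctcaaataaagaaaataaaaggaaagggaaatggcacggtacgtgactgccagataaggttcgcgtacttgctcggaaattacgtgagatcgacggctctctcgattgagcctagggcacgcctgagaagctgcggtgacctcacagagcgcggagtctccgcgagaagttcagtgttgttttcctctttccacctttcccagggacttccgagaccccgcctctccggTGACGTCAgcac
Zfand2a: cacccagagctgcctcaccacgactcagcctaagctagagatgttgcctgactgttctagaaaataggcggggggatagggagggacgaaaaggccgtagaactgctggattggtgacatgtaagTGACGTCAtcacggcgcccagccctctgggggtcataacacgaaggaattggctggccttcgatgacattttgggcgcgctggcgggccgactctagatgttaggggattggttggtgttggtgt
Among called genes with a promoter in the table, the element was found in 4 of 125 higher in CEBPD (3.2%) and 1 of 83 lower (1.2%), against 3.06% of genes tested.

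Hmox1, which degrades heme and is a common marker of oxidative and metal stress, was also among the 15 largest rises. It had 91209, 72911 and 90778 units in CEBPD and 33653, 19597 and 31329 units in CEBPB. Every CEBPD array was above every CEBPB array, and the fold was 3.08 (log2 1.62 ± 0.18, adjusted p = 5.12e-05). Of 26 heme oxygenase and antioxidant genes tested, 3 were higher and 1 lower, with a median of 0.12. The others higher were Gclm (0.69), a subunit of the enzyme that starts glutathione synthesis, and Srxn1 (0.61), which repairs peroxiredoxins. Gsta4, a glutathione transferase, was lower (−0.86). All but Hmox1 lost the call when 1 array was left out, at adjusted p values up to 0.137, 0.175 and 0.154.

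Zinc-response genes were read because every culture received zinc. Of 10 tested, 2 were higher in CEBPD and 0 lower (median log2 0.22). The zinc exporter Slc30a1 had 1814, 1990 and 1893 units in CEBPD, against 1245, 1038 and 955 units in CEBPB (log2 0.82). The metallothionein Mt2 had 133096, 126880 and 131938 units in CEBPD and 81396, 96133 and 85560 units in CEBPB (log2 0.58, adjusted p = 0.0429). Neither overlapped, and in vector Mt2 averaged 155339 ± 17064 units. Mt1, picked after its value was seen, differed by 0.26 and was not called. With 1 array left out the adjusted p reached 0.0626 for Slc30a1 and 0.135 for Mt2. The plasmids use a metallothionein promoter, and the part of zinc handling in the other differences was not tested.

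Further genes among the 15 largest rises stand in no list. Rgs2 and Rgs16 encode proteins that shorten G protein signals. Rgs2 had 6654, 7103 and 7340 units in CEBPD, against 1858, 1639 and 1812 units in CEBPB (log2 1.99 ± 0.17, adjusted p = 4.62e-06). Rgs16 had 11305, 10172 and 9699 units in CEBPD and 3863, 2572 and 3026 units in CEBPB (log2 1.74), and its second probe set gave 1.83. Both lay without overlap, and both CEBPD means were above vector, at 4517 ± 87.4 units for Rgs2 and 7421 ± 1057 units for Rgs16, without passing the test against it. Wwc1 (KIBRA), a scaffold of the Hippo pathway, was 3.18-fold higher in CEBPD. Its second probe set differed by 1.09 with an adjusted p of 0.206. Fam117a was 3.15-fold higher, with an adjusted p of 0.0512 without CEBPB array 2 and 0.108 without the arrays numbered 1.

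Procr, the receptor of protein C on endothelium and other cells, had the lowest adjusted p of the 30 largest differences. It had 15594, 17296 and 16406 units in CEBPD and 5712, 5084 and 5100 units in CEBPB. The groups were far apart for their spread, with a log2 difference of 1.63 ± 0.12 and an adjusted p of 1.74e-06. Vwf, the clotting glycoprotein of endothelium and platelets, had 1531, 2083 and 1850 units in CEBPD, against 121, 484 and 422 units in CEBPB. The lowest of these values is under the floor of 190 units to which low signals were raised. The log2 difference was 2.42 ± 0.44 (adjusted p = 0.00355), and the p was 0.0627 without the arrays numbered 1. The 6 endothelial markers on the array summed to 4245 to 5717 units in CEBPD, 3045 to 3463 units in CEBPB and 5178 to 6963 units in vector.

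Plat, the tissue plasminogen activator, had 9265, 11473 and 10382 units in CEBPD and 3740, 4650 and 3538 units in CEBPB (log2 1.39). Plaur, the receptor of the urokinase activator, had 10367, 10664 and 10915 units in CEBPD and 3891, 3777 and 4766 units in CEBPB (log2 1.37). Plat and Plaur, 2 of the genes of pericellular plasmin formation, were thus higher in CEBPD without overlap. For Plat and Plaur, CEBPD minus vector was −0.05 and −0.17, and CEBPB minus vector −1.44 and −1.54. F3, tissue factor, which starts coagulation, went the other way. It had 4562, 5225 and 4429 units in CEBPD, against 8683, 11441 and 10397 units in CEBPB (log2 −1.10 ± 0.15, adjusted p = 0.000247). The inhibitor Timp2 fell by 0.82. In the list of matrix proteases and inhibitors 2 of 13 were higher and 1 lower.

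The Id proteins, which lack a DNA-binding region and sequester basic helix-loop-helix factors, moved together. Id3 had 4602, 6703 and 5000 units in CEBPD and 1818, 2371 and 1457 units in CEBPB. Id2 had 4036, 5007 and 4255 units in CEBPD, against 1976, 1528 and 1417 units in CEBPB. Id1 averaged 8153 ± 533 units in CEBPD and 4808 ± 599 units in CEBPB (SD, n = 3 each). The log2 differences were 1.54, 1.44 and 0.77, without overlap in any. In the same order, CEBPD minus vector was 0.18, 0.07 and 0.16, and CEBPB minus vector −1.36, −1.37 and −0.61. The list they belong to had 3 of 10 higher and 0 lower (median 0.27), and the TGF-β feedback gene Skil, at 1.34, was not called.

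**Figure D2:**
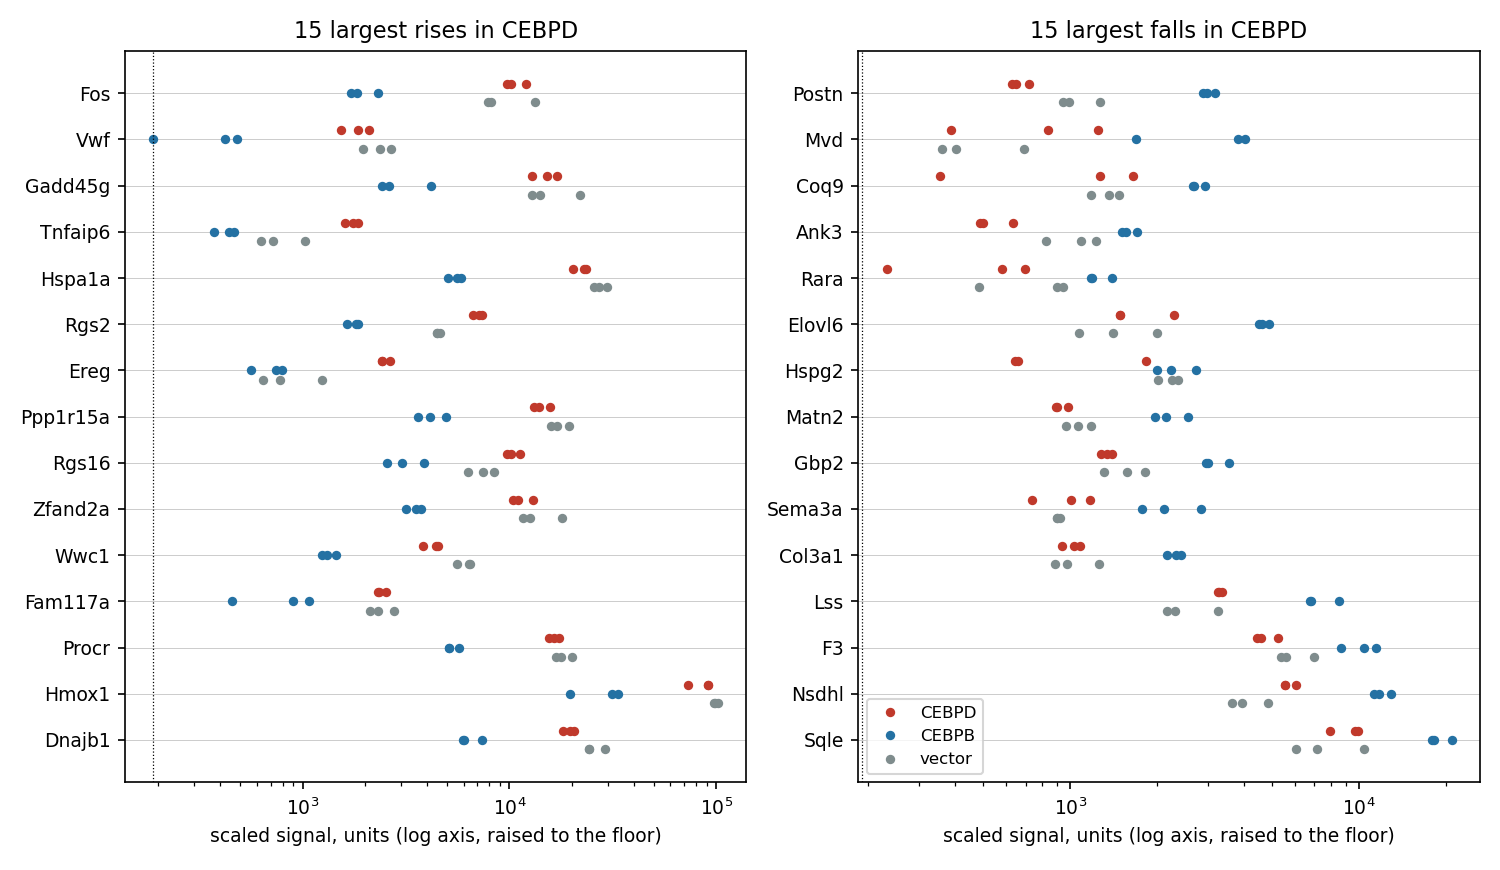
Scaled signal on each array (log axis) for the 15 largest rises (left) and the 15 largest falls (right), with CEBPD in red, CEBPB in blue, vector in grey and the floor dotted. These genes were chosen among those without overlap of CEBPD and CEBPB arrays, so the lack of overlap here was fixed by the choice. For most genes the grey points lie nearer to the red than to the blue.

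A smaller group of genes was higher in CEBPD than in both CEBPB and vector. This was not particular to CEBPD, as the C/EBPα and C/EBPε means also lay above vector. They were 2228 and 3801 units for Ereg, 11204 and 16576 units for Ptx3, and 12445 and 17542 units for Cxcl1. Ereg, a ligand of the EGF receptor, had 2428, 2658 and 2414 units in CEBPD and 563, 796 and 740 units in CEBPB, with 888 ± 316 units in vector. CEBPD was above CEBPB by 1.85 ± 0.22 (adjusted p = 7.4e-05) and above vector by 1.55 (adjusted p = 0.00178). CEBPB minus vector was −0.30 and was not called. Ptx3, a long pentraxin of innate immunity, had 11437, 7630 and 9963 units in CEBPD and 6034, 4342 and 4810 units in CEBPB. Without overlap, it differed by 0.93 from CEBPB and by 1.29 from vector, while CEBPB minus vector was 0.36 and not called. Its adjusted p against CEBPB was up to 0.0588 with 1 array left out. Cxcl1, a neutrophil chemokine, had 11608, 9860 and 11755 units in CEBPD, against 6411, 5935 and 6730 units in CEBPB. Its differences were 0.80 from CEBPB and 0.90 from vector, both called, with CEBPB minus vector at 0.10, and a dimmer probe set gave 1.02 and 1.05 for the first 2. Without the arrays numbered 1 the comparison of Cxcl1 with CEBPB had an adjusted p of 0.0761. In that fit the difference from vector was not called for Ereg (0.0563), Ptx3 (0.0676) or Cxcl1 (0.183).

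Tnfaip6, a hyaluronan-binding protein made in inflammation, had 1843, 1760 and 1601 units in CEBPD and 371, 465 and 441 units in CEBPB (log2 2.03 ± 0.36, adjusted p = 0.00298). CEBPD minus vector was 1.15 and CEBPB minus vector −0.88, neither of them called, so vector lay between. The call was lost without a floor (adjusted p = 0.0673) and without the arrays numbered 1 (0.0876). In the list of chemokines and cytokines 2 of 15 were higher in CEBPD and 1, Csf1 (−0.82), lower. Il11 differed by 1.43 and was not called. Of 7 acute phase genes Ptx3 was higher and Cp, which carries copper, was lower (−0.84). Haptoglobin, Hp, at 0.47 (adjusted p = 0.225), differed from vector by 1.91 in CEBPD and by 1.44 in CEBPB.

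Lpl, Cd1d1 and Aldh3a1 were called above vector in both groups and called higher in CEBPD than in CEBPB, but the calls of CEBPB against vector depend on settings. Lpl, which releases fatty acids from lipoproteins, had 1594, 1998 and 1351 units in CEBPD, 781, 948 and 925 units in CEBPB and 254 ± 33.4 units in vector. It did not overlap between the factors, and was 2.69 above vector in CEBPD and 1.80 in CEBPB on the log2 scale. With the floor at the 40th percentile these became 1.28 and 0.39, the second not called (adjusted p = 0.252). The difference between the factors, 0.88, had an adjusted p of 0.0305, up to 0.153 with 1 array left out. A second Lpl probe set differed by 0.71 and was not called. Cd1d1, which presents lipids to natural killer T cells, had 1372, 1392 and 1257 units in CEBPD and 564, 507 and 598 units in CEBPB. The factors differed by 1.27 (adjusted p = 0.018; up to 0.0729 with 1 array left out). In vector 2 of its 3 arrays were under the floor, which therefore sets its differences from vector: 2.67 in CEBPD and 1.39 in CEBPB with the floor used here, and 0.998 and 0 with the floor at the 40th percentile. Aldh3a1, an aldehyde dehydrogenase, differed by 0.71 between the factors and by 1.38 and 0.67 from vector in CEBPD and CEBPB. Its adjusted p between the factors was up to 0.0744 with 1 array left out. For CEBPB against vector it was 0.0547 without CEBPB array 1 and 0.193 without the arrays numbered 1.

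The adipocyte list, chosen for the factors' known role, had 1 of 14 higher (Lpl) and 0 lower (median log2 −0.07). Pparg (0.74) and Fabp5 (−0.67) were not called; Fabp5 had an adjusted p of 0.0213 with the array number as a block. Of 8 granulocyte and myeloid genes tested 0 were called.

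A C/EBP motif (TTGCNNAA, both strands) was found in 15 of 125 promoters of genes higher in CEBPD (12%) and 7 of 83 of genes lower (8.43%), against 8.54% of genes tested and 10.8% of all promoters. Among the 35 promoters found for 46 named or listed genes looked up, it was present in Procr, Nsdhl and Ptx3. That of Ptx3, on chr3:66219637-66219886 (plus strand), is shown because Ptx3 was above both CEBPB and vector, and its match begins 57 bases before the start.
Ptx3: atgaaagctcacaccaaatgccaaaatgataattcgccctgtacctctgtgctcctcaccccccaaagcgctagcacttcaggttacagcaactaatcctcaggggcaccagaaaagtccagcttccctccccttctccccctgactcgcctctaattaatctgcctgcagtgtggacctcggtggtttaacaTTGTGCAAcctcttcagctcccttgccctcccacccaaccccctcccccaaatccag
Binding of either factor there was not measured.

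**Figure D3:**
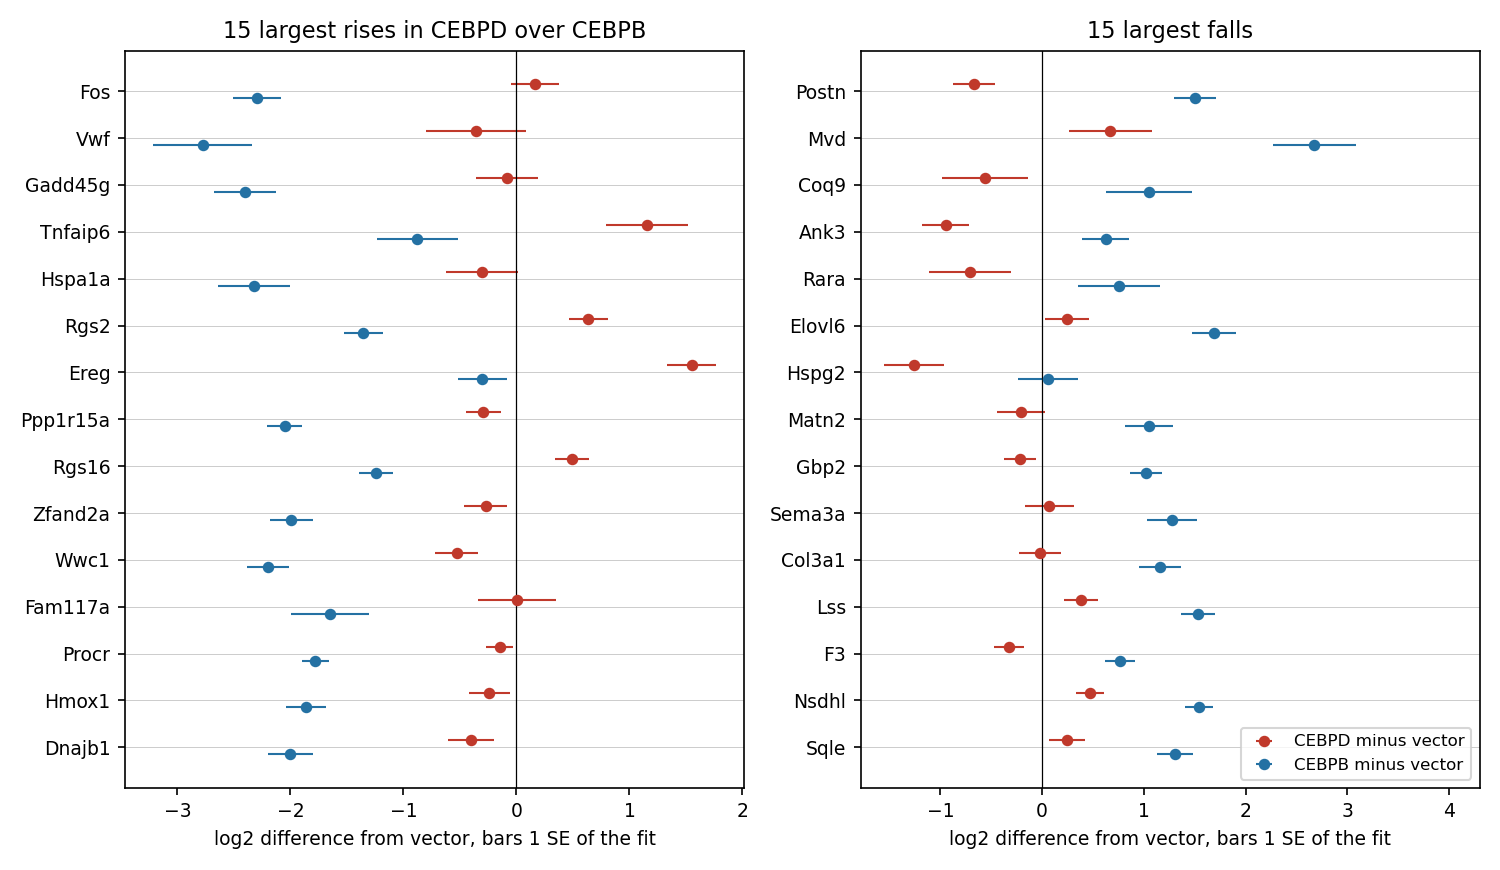
Log2 difference from vector with 1 SE of the fit for CEBPD (red) and CEBPB (blue), for the 15 largest rises (left) and falls (right) of CEBPD over CEBPB. The red points of the rises run from −0.53 to 1.55 and the blue from −2.78 to −0.30; those of the falls run from −1.26 to 0.67 and from 0.06 to 2.67.

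Against vector, the 15 largest rises ran from −0.53 (Wwc1) to 1.55 (Ereg) in CEBPD and from −2.78 (Vwf) to −0.30 (Ereg) in CEBPB. Ereg was the only 1 of them called between CEBPD and vector. The 15 largest falls ran from −1.26 (Hspg2) to 0.67 (Mvd) in CEBPD and from 0.06 (Hspg2) to 2.67 (Mvd) in CEBPB, and 0 of them were called between CEBPD and vector in limma, though Hspg2 had an adjusted p of 0.0441 there with the array number as a block.

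Cholesterol synthesis enzymes were the list with most falls: 8 of 16 tested were lower in CEBPD, 0 were higher and all 16 differences were below 0 (median log2 −0.58). Over all genes tested, 2.08% were called lower, and 2875 of 5338 differences were below 0. In pathway order the called genes began with Hmgcs1, which makes HMG-CoA, with 8827, 9722 and 9153 units in CEBPD and 14252, 14314 and 16239 units in CEBPB. Mvd, which makes isopentenyl diphosphate, had 385, 1248 and 838 units in CEBPD, against 1690, 4038 and 3813 units in CEBPB. Neither overlapped, and the log2 differences were −0.69 ± 0.12 and −2.00 ± 0.41. Mvd's adjusted p of 0.0078 was 0.0557 without a filter on low signals. Idi1 (−0.89) and Fdps (−1.05) supply the isoprenoid units.

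Further down the pathway, Sqle, which oxidises squalene, had 7904, 9648 and 9888 units in CEBPD and 17839, 20900 and 18190 units in CEBPB. Lss, which closes the sterol rings, had 3248, 3355 and 3264 units in CEBPD and 6808, 8539 and 6761 units in CEBPB. Nsdhl, which removes methyl groups from the sterol, had 5523, 6048 and 5521 units in CEBPD and 11708, 12885 and 11282 units in CEBPB. All 3 were about 0.45 to 0.48 times the CEBPB level, at log2 −1.06, −1.16 and −1.07, without overlap. Of the other Nsdhl probe sets, 1 was at 0.498 times the CEBPB level and called, and 1 at 0.894 times and not called. Msmo1, a sterol oxidase, fell by 0.64. Idi1, Hmgcs1, Fdps and Msmo1 lie outside the rule for names and were chosen after their values were seen, as was Mvk, whose brighter probe set differed by −0.15 uncalled and whose dimmer one by −2.37 (adjusted p = 0.0214).

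CEBPD minus vector had a list median of 0.21 with 1 of 16 called higher, Hmgcs1 (0.65, adjusted p = 0.0128), and CEBPB minus vector 0.72 with 8 called higher. The list's 8 falls were 6 to 9 over all alternatives. Elovl6, which lengthens fatty acids, had 1487, 2284 and 1489 units in CEBPD and 4502, 4864 and 4624 units in CEBPB (log2 −1.44 ± 0.22, adjusted p = 0.000736). Its second probe set fell by 0.93. Its vector mean was 1493 ± 466 units, near that of CEBPD.

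**Figure D4:**
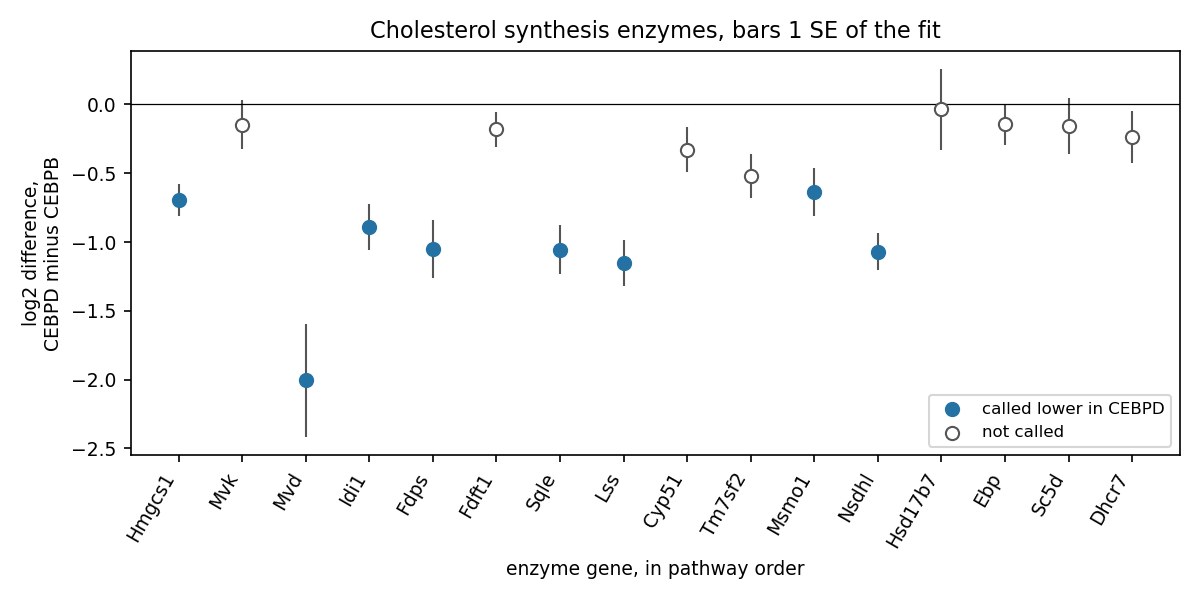
Log2 difference CEBPD minus CEBPB with 1 SE of the fit for the 16 cholesterol synthesis genes tested, in pathway order from left to right. All 16 points lie below 0, and the 8 filled ones, called lower in CEBPD, run from −0.64 (Msmo1) to −2.00 (Mvd).

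The sterol regulatory element, the site of SREBP factors, was looked for with the letters TCACNCCAC on both strands. It was found in 1 of 6 called cholesterol genes with a promoter in the table and in 1.22% of all promoters. The match, in Hmgcs1 on chr13:119690101-119690350 (plus strand), begins 137 bases before the start and is shown for that reason.
Hmgcs1: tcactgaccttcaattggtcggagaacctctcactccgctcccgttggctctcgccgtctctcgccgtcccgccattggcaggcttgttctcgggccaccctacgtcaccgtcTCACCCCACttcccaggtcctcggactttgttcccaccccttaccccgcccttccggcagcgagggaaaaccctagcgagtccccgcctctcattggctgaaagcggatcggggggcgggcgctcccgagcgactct
No match in the others says only that these letters are not in the window.

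Some matrix genes were lower in CEBPD: 3 of 14 collagens and 4 of 21 other matrix genes were called. Postn, periostin, a matrix protein of fibroblasts, had 630, 646 and 719 units in CEBPD, against 2969, 2877 and 3162 units in CEBPB. It was the largest fall, at 0.221 times the CEBPB level (log2 −2.18 ± 0.20, adjusted p = 9.5e-06), with vector between at 1068 ± 178 units. Col3a1 had 1080, 1034 and 937 units in CEBPD and 2155, 2327 and 2425 units in CEBPB (log2 −1.18). A second Col3a1 probe set differed by −0.63 with an adjusted p of 0.281. Col1a1 had 18618, 16416 and 19473 units in CEBPD and 30070, 46954 and 32793 units in CEBPB, at −0.99, and −0.61 on its other probe set. Col1a2 fell by 0.89, although its dimmer probe set differed by 0.02. These fibrillar collagens were the 3 of 14 collagens called lower, with 0 higher (median −0.31), and 5 were called lower with the array number as a block. CEBPD minus vector was −0.02 for Col3a1, −0.23 for Col1a1 and −0.20 for Col1a2. CEBPB minus vector was 1.16, 0.76 and 0.70.

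Of 21 other matrix genes 4 were lower and 0 higher (median −0.31). They were Postn, Hspg2 (perlecan, −1.32), the small proteoglycan Dcn (−0.84) and Fbln2 (fibulin, −0.73), the last named after its value was seen. Dcn was above vector in both groups, by 0.79 in CEBPD (adjusted p = 0.0577 in limma, not called) and by 1.63 in CEBPB. Hspg2 had 661, 644 and 1827 units in CEBPD and 1989, 2725 and 2229 units in CEBPB, so 1 CEBPD array lay close to CEBPB. Its adjusted p reached 0.0797 with 1 array left out, and the list's 4 calls became 2 without CEBPB array 2, CEBPD array 1 or CEBPD array 2. Matn2, a matrilin, was 0.419 times the CEBPB level and was not in the list.

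The remaining large falls had no common list. Gbp2, an interferon-induced GTPase, had 1279, 1338 and 1395 units in CEBPD and 2941, 3535 and 3001 units in CEBPB (log2 −1.24 ± 0.16, adjusted p = 0.00015). It was 1 of 3 lower among 13 interferon genes, with Irgm1 (−0.94) and Irf1 (−0.72), while Ifi202b was higher (1.22). Irf1 was named after its value was seen. Ank3, an ankyrin that ties membrane proteins to spectrin, had 498, 486 and 631 units in CEBPD and 1700, 1564 and 1510 units in CEBPB (log2 −1.57). Sema3a, a secreted guidance cue, was 0.434 times the CEBPB level, with an adjusted p of 0.0591 without CEBPB array 3. Coq9, of ubiquinone synthesis, and Rara, a retinoic acid receptor, were close to the threshold at adjusted p values of 0.0376 and 0.0474. In each of these, 1 CEBPD array was much lower than the others: 355 units against 1651 and 1269 for Coq9, and 231 units against 696 and 582 for Rara. With 1 array left out their p values reached 0.117 and 0.185.

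**Figure D5:**
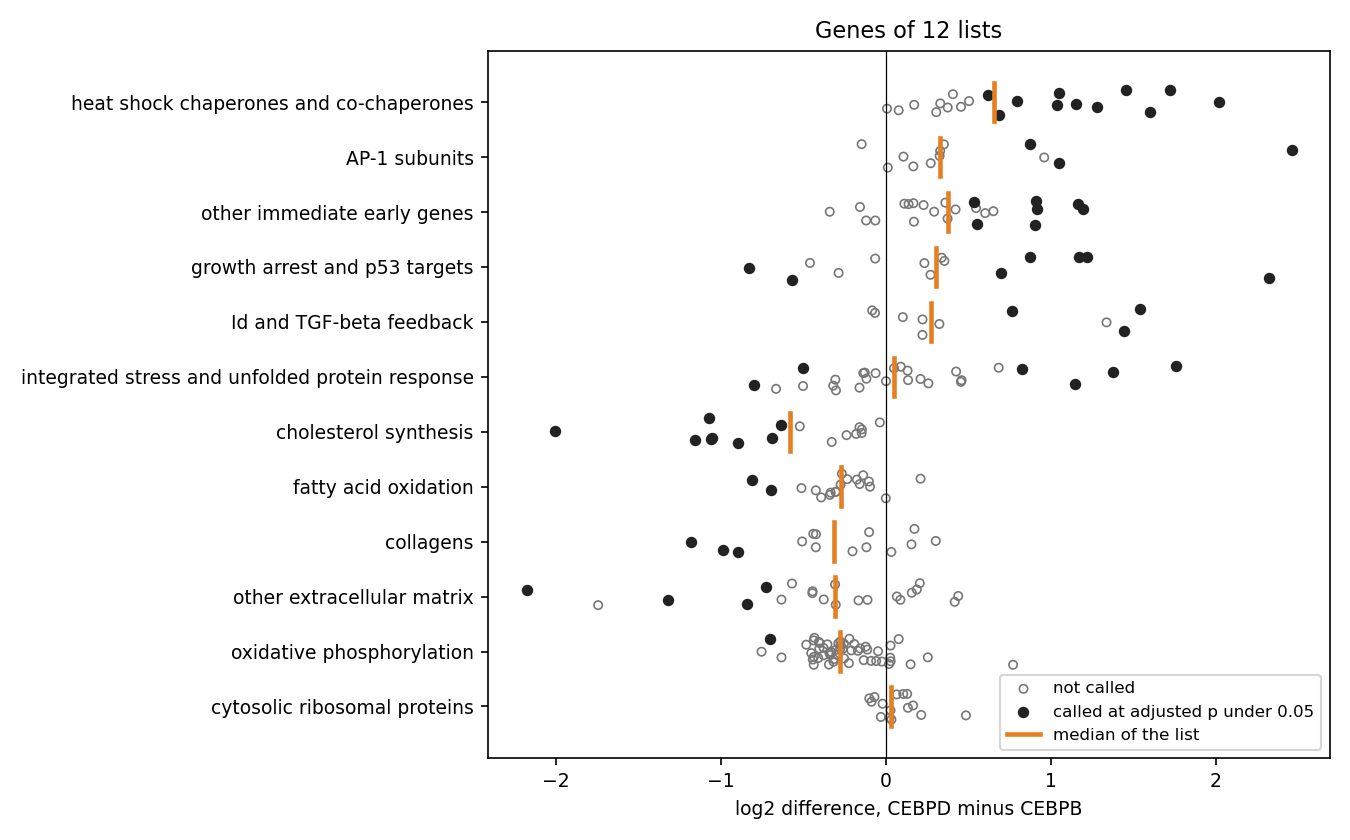
Log2 difference CEBPD minus CEBPB for each tested gene of 12 lists, filled where called, with the list's median in orange. The heat shock points all lie above 0 and the cholesterol points all below it, while ribosomal proteins cluster around 0.

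The lists of basic metabolism and growth are read against the 4.91% of all genes tested that were called. Cytosolic ribosomal proteins gave 0 of 15 and proteasome subunits 0 of 31 in limma, although 26 of the 31 proteasome differences were below 0 (median −0.15). Oxidative phosphorylation had 1 of 53 lower (Ndufv3, −0.70), but 45 of its 53 differences were below 0 and its median was −0.28. Fatty acid oxidation had 2 of 19 lower (10.5%; Hadhb −0.81, Acadm −0.69; median −0.27), 1 without CEBPB array 1, 2 or 3 or CEBPD array 1 or 3, and 4 with the array number as a block. Of 49 cell cycle genes 2, Tk1 (−0.51) and Ccnd1 (−0.48), were lower and 0 higher (median −0.02). Glycolysis had 1 of 17 higher (Eno2, 0.62), circadian genes 1 of 13 (Nr1d1, 0.65) and smooth muscle genes 1 of 11 (Acta2, 0.83). Of 5 iron genes Cp and the transferrin receptor Tfrc (−0.59) were lower, which is 40% of a short list, and 0 were called without the filter on low signal. Each of these single genes but Hadhb lost its call with at least 1 array left out.

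Growth factors and receptors had 4 of 20 higher and 1 lower (median −0.08). Hbegf, a further EGF receptor ligand, had 7786, 10499 and 8040 units in CEBPD and 3592, 4206 and 3216 units in CEBPB (log2 1.25). It differed from vector by 0.03 in CEBPD and by −1.22 in CEBPB. The others higher beside Ereg were Kitl (0.71) and Fgf7 (0.63), and Ccn2 was lower (−0.65), the last 3 named after their values were seen. Of 11 detoxifying enzymes Sat1, which acetylates polyamines (1.23), and Aldh3a1 were higher. Among 9 genes of MHC class I and Cd1, Cd1d1 was the 1 called. Of the called probe sets without a single gene symbol, the 2 largest rises were 1.88 and 1.40 and the 2 largest falls −1.51 and −1.32.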

How the data were processed

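The authors scanned the arrays and analysed the images in Affymetrix Microarray Suite 5.0, per the labels; the deposited intensity values, without detection calls, ran from 0.5 to 256543.7, with array medians of 992.25 to 1149.7 and 2% trimmed means of 2498.99 to 2499.65. Control probe sets were left out, each array was scaled to the mean of the 15 medians, values were raised to the pooled 20th percentile (190 units) and log2 taken. Tested were probe sets that exceeded 1092 units, the pooled median, on 3 or more of the 15 arrays. limma 3.58.1 in R 4.3.3 fitted 1 coefficient per group on all 15 arrays (trend, two-sided tests), with Benjamini-Hochberg adjustment within each contrast. The fit was also run on simulated arrays with independent noise. These lack the deviations shared by same-numbered arrays, so that run cannot speak to their effect on the calls. Each gene took the values of the tested probe set with the highest mean signal, named from GEO's platform annotation, with 10817 of 10833 symbols updated through Entrez IDs to RefSeq's GRCm38.p6.

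Named were the C/EBP family, the 15 largest rises and 15 largest falls among called genes without overlap, up to 4 members per list with the largest differences, up to 2 called probe sets each way without a single symbol, and other probe sets of the first 2 kinds. The comparison, lists and tests were chosen with earlier results of these data known.

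Titles carry array numbers (a title with none was taken as 1). Deviations of same-numbered CEBPD and CEBPB arrays correlated at 0.413, 0.309 and 0.124 for numbers 1, 2 and 3 across probe sets. The main fit has no term for the number, so its counts, SEs and adjusted p values ignore this pairing. A second fit, with the number as a block, is given where it changes a call. What the number stands for is not given in the sources used here. Promoter sequences are RefSeq's, 1 start per symbol; motifs were searched on both strands.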

Additional observations from a re-analysis of the deposited data

How the results depend on the processing

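The count of 332 called probe sets became 580 after quantile normalization, 526 without scaling, 684 with the replicate block and 1284 with array weights, where 45.6% of calls were higher in CEBPD, against 185 of 332. It was 316 when the fit held only the CEBPD and CEBPB arrays, 296 without a filter on low signal and 327 without a floor. Without the arrays numbered 1 it was 134, of which 127 were among the 332. Leaving out single arrays gave 189 to 381. A univariate F-test on the 2 groups, as the labels name, gave 99 at the 0.001 level and 52 after Benjamini-Hochberg adjustment. The causes of these changes were not tested. Of the 30 largest rises and falls, 22 were called in every alternative limma fit other than those without 1 array. These alternatives include the fit without the arrays numbered 1 and the fit on only the CEBPD and CEBPB arrays. In every fit without 1 array 25 were called, and 0 changed sign in any fit. The 30 were chosen without overlap, so leaving out arrays could not change a sign. Beside the calls named above, the block changed no call of those 30. Further losses with 1 array left out were Csf1 (adjusted p up to 0.0708), Cp (0.129), Acta2 (0.0921), Col1a2 (0.135), Irgm1 (0.0528) and Slc3a2 (0.0504). Without the arrays numbered 1 the calls of Nr4a2 (0.0697), Ccng2 (0.0543), Timp2 (0.101), Cd68 (0.0876) and Hadhb (0.0584) were lost too. In that fit the calls of Lpl (0.203), Hspg2 (0.127), Fam117a (0.108), Rara (0.108), Coq9 (0.0976), Sema3a (0.0906) and Cp (0.0697) were also lost. Among the 30, Vwf had 1 CEBPB array under the floor of 190 units.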
